A study of Mus musculus with 6 samples.

Results

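The 38 genes described here encode the RNA polymerase I (Pol I) machinery, the chromatin complex through which nuclear myosin 1 works at the ribosomal DNA, and factors that build ribosomes. They were taken by name from the 46603 genes listed in each count file, and all 38 were found. No measured value served as a filter, but the list was chosen with earlier results of these data known. They fall into 6 groups: 5 core subunits of Pol I, 7 initiation and termination factors, 8 members of the B-WICH complex with nuclear myosin partners, 8 nucleolar and snoRNP proteins (a snoRNP is a small nucleolar RNA with its proteins), 9 ribosome assembly factors, and Myc. RNA was sequenced from whole, unsorted bone marrow, with 3 mice of the NM1 KO and 3 of the NM1 WT genotype. NM1 is nuclear myosin 1, an isoform encoded by Myo1c. All mice were C57/Bl6 and 8 months old, each library came from the femurs and tibiae of 1 mouse, and no other treatment or allele is given in the labels. The labels do not state how the NM1 allele was made or in which cells it is lost.

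Pol I transcribes the ribosomal RNA genes in the nucleolus. It is brought to the promoter by the selectivity factor SL1, by the upstream binding factor UBF and by the initiation factor RRN3. Nuclear myosin 1 associates with Pol I and, together with the bromodomain protein WSTF and an ISWI ATPase, forms the core of B-WICH, a remodelling complex that opens chromatin at ribosomal RNA genes. In marrow, where precursors divide fast and then mature, ribosome production is known to be high in early precursors and low in mature granulocytes. The comparison therefore asks whether messenger RNAs of this machinery differed between NM1 KO and NM1 WT marrow.

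None of the 38 genes passed the threshold, an adjusted p under 0.05. The test was edgeR's quasi-likelihood test with Benjamini-Hochberg adjustment over all 15069 tested genes, of which 0.776% passed, 0.591% higher and 0.186% lower in NM1 KO. DESeq2, limma-voom and edgeR's likelihood ratio test also called 0 of the 38. At an unadjusted p under 0.05 there was 1 member, Gnl3, or 2.63% of the members, beside 16.8% of all tested genes. All 38 members were tested, and the smallest count of any member in any library was 128. The median log2 fold change of the members, NM1 KO over NM1 WT, was -0.02, with 17 positive and 21 negative values, beside a median of 0.00 over all tested genes. The fold changes ran from -0.42 for Taf1a to 0.35 for Gnl3. The 95% interval of the fold change lay within a 2-fold difference either way for 38 of 38 members, beside 62.4% of all tested genes. It lay within 1.5-fold for 33 members, beside 34.5% of all tested genes. These shares are not matched for level. The members had a median CPM of 55.9 and a median SE of 0.14, beside 17.8 and 0.21 over all tested genes. The mean score of the 38 genes, the mean of their log2 CPM (counts scaled to library size), came to 5.94 ± 0.0632 in the NM1 KO mice and 5.93 ± 0.0954 in the NM1 WT mice (SD, n = 3).

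**Figure D1:**
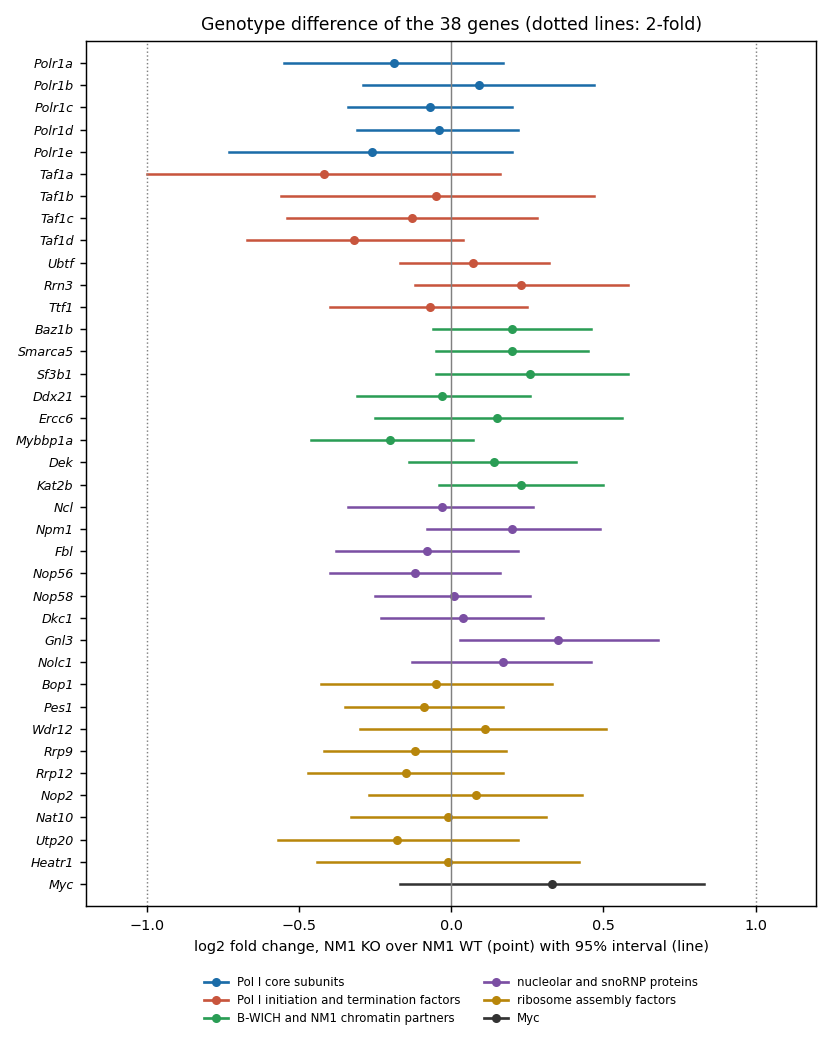
Log2 fold change of each of the 38 genes, NM1 KO over NM1 WT (x axis, point), with its 95% interval from edgeR's quasi-likelihood fit (line), coloured by group, with dotted lines at a 2-fold difference. All intervals end within the dotted lines, and the interval of Gnl3 (0.03 to 0.68) is the one that leaves out 0.

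Library totals ran from 15145052 to 22618802 counts, with the totals of NM1 KO above those of NM1 WT throughout. Myo1c, whose counts add up all isoforms and so do not check the loss of the nuclear form itself, had a mean CPM of 64.2 ± 8.28 in the NM1 KO mice against 102 ± 12.4 in the NM1 WT mice (SD, n = 3). Its adjusted p was 0.0516 in edgeR's test. Marrow markers were abundant: neutrophil and erythroid lists had mean scores of 10.63 to 11.47 and 8.78 to 9.34 log2 CPM. Cell type markers moved with genotype. Of 10 platelet and megakaryocyte markers 9 passed the threshold, higher in NM1 KO, beside 0.591% of all tested genes. All 10 had positive log2 fold changes, with scores of 6.74 to 7.71 in NM1 KO and 5.60 to 5.99 in NM1 WT. Of 9 stroma and bone markers 5 passed and all 9 were positive, with scores of 5.58 to 6.22 and 4.51 to 4.92. Of 8 skeletal muscle markers 6 passed and all 8 were positive, with scores of 3.16 to 3.40 and 0.06 to 1.37. Mb, myoglobin, was at 0 counts in all NM1 WT libraries. None of 12 neutrophil markers passed, though all had lower means in NM1 KO, with scores of 10.63 to 11.04 and 11.06 to 11.47. None of 9 erythroid markers passed either, though all 9 had positive log2 fold changes, with scores of 8.93 to 9.34 and 8.78 to 8.85. Of 8 T and NK cell markers 1 passed, Cd4, higher in NM1 KO, while 3 were positive and 5 negative. None of 10 early B cell markers passed, with 7 positive and 3 negative. Their scores were 5.52 to 5.85 in NM1 KO and 5.37 to 5.47 in NM1 WT. None of 10 proliferation markers passed, though all 10 had positive log2 fold changes, with scores of 7.95 to 8.38 in NM1 KO and 7.93 to 8.05 in NM1 WT. The part of these differences in the values of the 38 genes was not tested, and in whole marrow fewer cells of a type cannot be told apart from less RNA per cell.

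Levels per exon length, in CPM per kilobase, differed far more between members than between genotypes. Exon length is that of all annotated exons merged, which can exceed any single transcript, so the order of genes depends on it. The mean over the 6 libraries ran from 1.35 for Ercc6, a DNA-dependent ATPase of transcription-coupled repair, to 209 for Dek, a chromatin protein, which is a 155-fold range. Npm1, nucleophosmin, followed Dek at 202, and the ranges of both genes over the libraries overlapped. Ncl, nucleolin, stood next at 57.7, and Ubtf, which encodes UBF, at 41.0. In CPM without this length, Ncl (10188 bases) averaged 582 in NM1 KO and 595 in NM1 WT, and Npm1 (2665 bases) 575 and 499. The lowest levels per exon length after Ercc6 were those of Wdr12 (2.10) and Utp20 (2.17), whose merged exons span 11955 and 10199 bases.

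**Figure D2:**
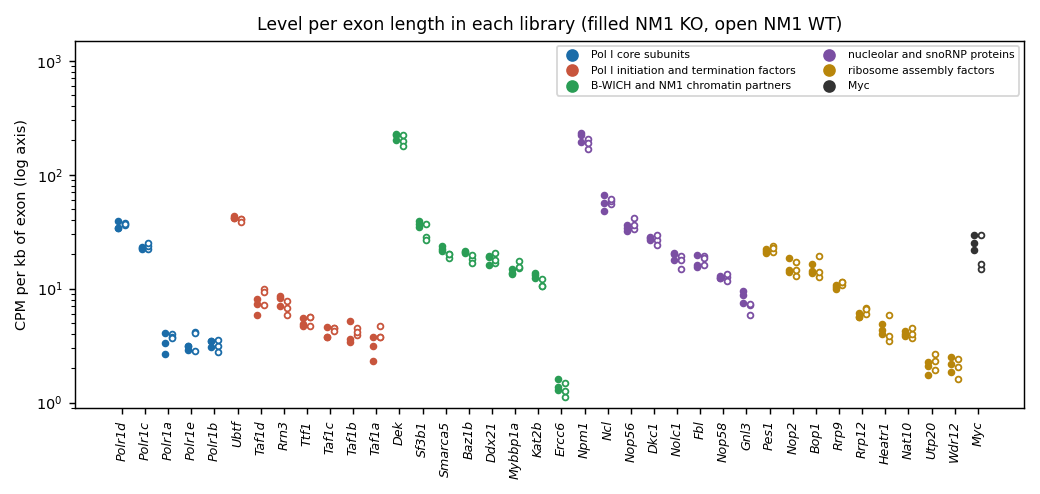
CPM per kilobase of exon for each gene in each library (log axis), filled for NM1 KO and open for NM1 WT, coloured by group and ordered by level within it. Dek and Npm1 stand highest at 209 and 202, and Ercc6 lowest at 1.35, while the genotypes lie side by side for each gene.

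Among the core subunits of Pol I, 0 of 5 passed, with a median log2 fold change of -0.07 and 4 negative values. Polr1a, the largest catalytic subunit (ENSMUSG00000049553, chromosome 6, 71909053 to 71984935 on GRCm38), had 39.6, 31.5 and 48.6 CPM in NM1 KO and 47.4, 45.0 and 44.1 CPM in NM1 WT. The NM1 WT values lay close together inside the upper part of the NM1 KO range, and the log2 fold change was -0.19 (SE 0.17, adjusted p = 0.612, edgeR). Polr1e, a subunit that helps Pol I engage with initiation factors, had 12.3, 11.3 and 12.2 CPM in NM1 KO and 11.1, 16.1 and 15.7 CPM in NM1 WT. NM1 WT 1 lay below all NM1 KO mice and the other NM1 WT mice above them, with a log2 fold change of -0.26 (SE 0.21). Polr1c, which Pol I shares with RNA polymerase III, had 51.5, 51.0 and 52.9 CPM in NM1 KO and 51.2, 54.1 and 57.6 CPM in NM1 WT. Its groups overlapped, and its log2 fold change was -0.07 with an interval of -0.34 to 0.20.

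The other subunits were Polr1b, the second largest subunit, with a log2 fold change of 0.09, and Polr1d, the partner of Polr1c, with -0.04. On the scale of CPM per kilobase, Polr1c and Polr1d stood well above Polr1a, Polr1b and Polr1e in every library. This did not extend to all Pol I-specific subunits, as Znrd1, described below, averaged 40 CPM per kilobase, beside 23.3 for Polr1c and 36.4 for Polr1d. Polr1c had 5.63 to 8.45 times and Polr1d 8.28 to 14.9 times the level of Polr1a. The Polr1d ratio averaged 11.1 ± 3.41 in the NM1 KO mice and 9.67 ± 0.509 in the NM1 WT mice (SD, n = 3). In NM1 KO 2, where it was 14.9, Polr1a was at its lowest and Polr1d at its highest of the 6 libraries. Merged exons span 11871 bases in Polr1a, 2278 in Polr1c and 3043 in Polr1d, and the ratios depend on these lengths. In CPM, Polr1a averaged 39.9 in NM1 KO and 45.5 in NM1 WT. Polr1c averaged 51.8 and 54.3, and Polr1d 109 and 113.

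Of 8 further subunits that Pol I uses, most of them shared with other polymerases, 0 passed and 5 were negative, with a median of -0.12. Polr2e, a subunit common to all 3 nuclear polymerases, had 53.7, 54.0 and 61.9 CPM in NM1 KO and 78.3, 73.2 and 70.3 CPM in NM1 WT. Its groups did not overlap, and its log2 fold change was -0.39 (SE 0.12, adjusted p = 0.154, edgeR). Znrd1, a small subunit specific to Pol I, had a log2 fold change of -0.24 (SE 0.15). The mean score of these 8 subunits was 4.94 to 5.02 log2 CPM in NM1 KO and 5.03 to 5.17 in NM1 WT. The groups overlapped under upper-quartile and total-count scaling.

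Among the initiation and termination factors, 0 of 7 passed, with a median log2 fold change of -0.07 and 5 negative values. Taf1d, a TBP-associated subunit of SL1, had 72.1, 65.7 and 52.1 CPM in NM1 KO and 89.3, 64.0 and 83.3 CPM in NM1 WT. NM1 WT 2 was among the NM1 KO mice and the other NM1 WT mice above them, and the log2 fold change was -0.32 (SE 0.16, adjusted p = 0.353, edgeR). The exons of Taf1d hold several snoRNA genes and meet 2 protein-coding genes on the other strand, so reads of these could be shared. Taf1a, another SL1 subunit, had 5.57, 7.51 and 9 CPM in NM1 KO and 9.09, 9.04 and 11.4 CPM in NM1 WT. The groups came close at NM1 KO 3 and NM1 WT 2 but did not overlap, and the log2 fold change of -0.42 (SE 0.26) was the most negative of the 38. Taf1b and Taf1c, the remaining SL1 subunits listed, had log2 fold changes of -0.05 and -0.13. The 4 SL1 subunits were thus all below 0, under each of the 4 scalings tried, but none passed the test. Taf1b was above 0 with the Y-linked covariate, at 0.07, and with some libraries left out, at up to 0.06.

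Ubtf encodes UBF, which keeps active ribosomal genes open. It had 271, 272 and 284 CPM in NM1 KO and 266, 268 and 251 CPM in NM1 WT, the smallest spread of these factors. The values did not overlap, yet the log2 fold change was 0.07, with an interval of -0.17 to 0.32. Rrn3, the growth-regulated factor that makes Pol I competent to initiate, had 30.4, 36.0 and 37.2 CPM in NM1 KO and 25.4, 33.6 and 29.2 CPM in NM1 WT. The groups overlapped through NM1 KO 1 and NM1 WT 2, with a log2 fold change of 0.23 (SE 0.16). Ttf1, which binds the terminators of the ribosomal genes, had a log2 fold change of -0.07. The mean score of the 7 factors was 4.85 to 4.95 log2 CPM in NM1 KO and 4.97 to 5.02 in NM1 WT, and with upper-quartile or total-count scaling the groups overlapped.

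In the B-WICH group 0 of 8 passed, with a median log2 fold change of 0.17 and 6 positive values, 7 under total-count scaling. The mean score of the 8 genes was 7.03 to 7.18 log2 CPM in NM1 KO and 6.93 to 7.07 in NM1 WT, overlapping through NM1 WT 2, and did not overlap under upper-quartile or total-count scaling. Smarca5, the ISWI ATPase of the complex (ENSMUSG00000031715, chromosome 8, 80698507 to 80739497 on GRCm38), had 168, 182 and 175 CPM in NM1 KO and 146, 157 and 156 CPM in NM1 WT. All NM1 KO mice lay above all NM1 WT mice, and the log2 fold change was 0.20 (SE 0.11, adjusted p = 0.421, edgeR), with an interval of -0.05 to 0.45. Baz1b, which encodes the WSTF protein (ENSMUSG00000002748, chromosome 5, 135187264 to 135246129), had 280, 292 and 289 CPM in NM1 KO and 250, 270 and 229 CPM in NM1 WT. These groups did not overlap either, and the log2 fold change was 0.20 (SE 0.12), with an interval of -0.06 to 0.46. The core partners of nuclear myosin 1 in B-WICH thus each had a mean 1.15-fold that of NM1 WT, and neither passed. Their levels per exon length stayed close to each other in every library, with a Baz1b to Smarca5 ratio of 0.933 ± 0.0201 in NM1 KO and 0.931 ± 0.081 in NM1 WT (SD, n = 3). Merged exons span 13667 bases in Baz1b and 7777 in Smarca5, and the ratio depends on these lengths.

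Kat2b, the histone acetyltransferase PCAF, which nuclear myosin 1 is known to help recruit to ribosomal chromatin, had 60.4, 66.3 and 63.8 CPM in NM1 KO and 59.6, 51.0 and 51.7 CPM in NM1 WT. The groups did not overlap, and the log2 fold change was 0.23 (SE 0.13, adjusted p = 0.379, edgeR). Sf3b1, a splicing factor found in B-WICH, had 416, 450 and 392 CPM in NM1 KO and 325, 420 and 304 CPM in NM1 WT. NM1 WT 2 was among the NM1 KO mice and the other NM1 WT mice well below them, with a log2 fold change of 0.26 (SE 0.14). Mybbp1a, a nucleolar protein that binds Pol I, had the opposite order, with 79.1, 78.4 and 86.1 CPM in NM1 KO and 88.4, 101 and 90 CPM in NM1 WT. Its values did not overlap, and its log2 fold change was -0.20 (SE 0.12). Mybbp1a lies 3.2 Mb from Myo1c on chromosome 11, nearer than the other members on that chromosome, Ubtf, Npm1 and Pes1, at 26.7 to 71.7 Mb.

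The remaining B-WICH genes had overlapping groups. Dek had a log2 fold change of 0.14, Ercc6 of 0.15, and Ddx21, a helicase that associates with ribosomal RNA, of -0.03. Exons of Dek share 15.9% of their bases with Kdm1b on the opposite strand, whose total count was small beside that of Dek. Of the 8 genes, 4 had non-overlapping groups, 3 higher and 1 lower in NM1 KO. Over all 38 members there were 8 such genes (21.1%), 5 higher and 3 lower, beside 20.5% of all tested genes, 10.8% higher and 9.75% lower. The share over the members lay near that of all genes under this scaling. With upper-quartile scaling 5 of 38 members did not overlap, 2 higher and 3 lower, beside 20.8% of all tested genes. With total-count scaling it was 5 of 38, all higher, beside 21.1%.

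**Figure D3:**
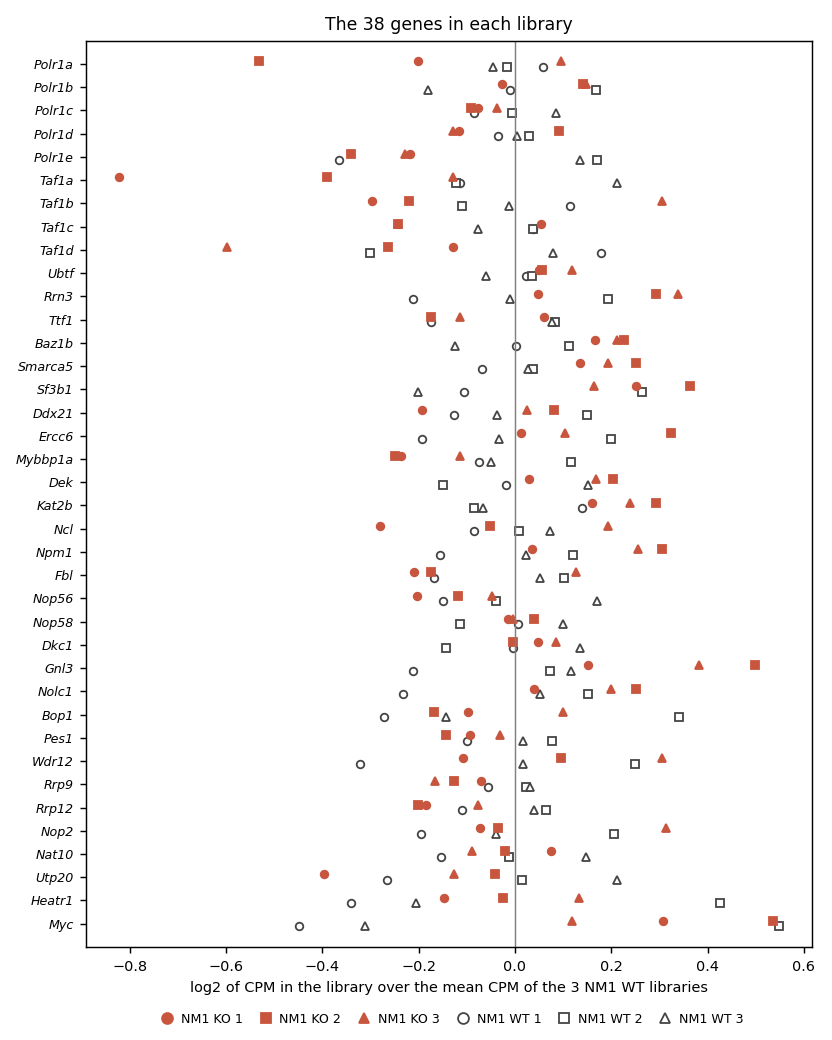
CPM of each gene in each library on the log2 scale, relative to the mean of the 3 NM1 WT libraries (x axis, 0 at that mean), with filled symbols for NM1 KO, open symbols for NM1 WT, and a shape for each replicate number. Smarca5, Baz1b, Kat2b, Gnl3 and Ubtf have all NM1 KO symbols to the right of NM1 WT, Taf1a, Mybbp1a and Rrp9 to the left, and the other 30 genes overlap.

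Among nucleolar and snoRNP proteins, 0 of 8 passed, with a median of 0.02 and 5 positive values (4 under upper-quartile scaling, 6 under total-count scaling). Gnl3, nucleostemin, a nucleolar GTPase of proliferating stem and progenitor cells (ENSMUSG00000042354, chromosome 14, 31012433 to 31019152), had 45.9, 58.4 and 53.9 CPM in NM1 KO and 35.7, 43.5 and 44.8 CPM in NM1 WT. The NM1 KO mice lay above the NM1 WT mice with no overlap, the nearest being NM1 KO 1 and NM1 WT 3. The log2 fold change was 0.35 (SE 0.15), a 1.28-fold difference, with adjusted p = 0.266 in edgeR's test. Npm1 encodes nucleophosmin, a histone and ribosome chaperone. It had 512, 617 and 596 CPM in NM1 KO and 448, 543 and 507 CPM in NM1 WT. The groups overlapped, as NM1 WT 2 exceeded NM1 KO 1, and the log2 fold change was 0.20 (SE 0.13). Npm1 has processed pseudogenes in the mouse genome, and reads shared with them are uncertain. Nolc1, a chaperone of snoRNPs, had 71.0, 82.2 and 79.3 CPM in NM1 KO and 58.8, 76.7 and 71.6 CPM in NM1 WT, with overlap and a log2 fold change of 0.17 (SE 0.14).

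The structural snoRNP proteins lay close to 0. Fbl, the methyltransferase fibrillarin, had a log2 fold change of -0.08, Nop56 and Nop58, its scaffold partners, -0.12 and 0.01, and Dkc1, the pseudouridine synthase dyskerin, 0.04. Ncl had -0.03, with NM1 KO values from 490 to 680 CPM that enclosed the NM1 WT values of 561 to 625 CPM. Intervals of these 5 genes all lay between -0.40 and 0.30. Nop56 stood at 2.58 to 3.10 times the level of Nop58 per exon length in the 6 libraries. Merged exons of Nop58 are longer, however, at 10758 against 4099 bases. In CPM, Nop56 averaged 140 in NM1 KO and 152 in NM1 WT, and Nop58 136 and 135. Of 13 genes that assemble or complete snoRNPs, 0 passed, with a median of -0.02. Pih1d1, a subunit of the R2TP chaperone, had -0.35 (SE 0.12, adjusted p = 0.176, edgeR) as its log2 fold change, and Tcof1, treacle, which binds UBF and Pol I, -0.39 (SE 0.15, adjusted p = 0.213, edgeR). Neither gene's groups overlapped, with NM1 KO lower.

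Among ribosome assembly factors, 0 of 9 passed, with a median of -0.05 and 7 negative values (5 under total-count scaling). Rrp12, needed for maturation and export of ribosomal subunits, had 24.5, 24.2 and 26.4 CPM in NM1 KO and 25.8, 29.1 and 28.6 CPM in NM1 WT. The groups met between NM1 KO 3 and NM1 WT 1, and the log2 fold change was -0.15 (SE 0.15, adjusted p = 0.647, edgeR). Utp20, a large scaffold of the small subunit processome, had 17.9, 22.9 and 21.6 CPM in NM1 KO and 19.6, 23.8 and 27.3 CPM in NM1 WT, with overlap and a log2 fold change of -0.18 (SE 0.18). Rrp9, a snoRNP protein of early pre-rRNA cleavage, had 31.3, 30.1 and 29.3 CPM in NM1 KO and 31.6, 33.4 and 33.6 CPM in NM1 WT. Its narrow groups did not overlap, and the log2 fold change of -0.12 (SE 0.14) left the interval of -0.42 to 0.18 across 0.

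The PeBoW complex, made of the proteins of Pes1, Bop1 and Wdr12, matures the large subunit. Its genes had log2 fold changes of -0.09, -0.05 and 0.11. The rRNA-modifying enzymes Nop2, a methyltransferase, and Nat10, an acetyltransferase, had 0.08 and -0.01, and Heatr1, an early processome protein, -0.01. Wider lists gave the same count: 0 of 36 small subunit processome genes and 0 of 40 large subunit assembly genes passed, with medians of 0.01 and -0.02. Wdr75 and Riok1 had the smallest p of the first list, with log2 fold changes of 0.35 and -0.28. In the second, Eif6, which keeps the subunits apart, had -0.28 (SE 0.12) and Rrs1, a large subunit assembly factor, 0.46 (SE 0.20, adjusted p = 0.279, edgeR). Rrs1 had 41.7, 47.5 and 46.6 CPM in NM1 KO and 26.5, 45.2 and 27 CPM in NM1 WT, and its groups overlapped through NM1 WT 2.

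Myc, the transcription factor that drives ribosome production (ENSMUSG00000022346, chromosome 15, 61985391 to 61990374), had the widest spread among the NM1 WT mice of the 38 genes, a coefficient of variation of 40.2%. It had 68.1, 79.7 and 59.7 CPM in NM1 KO and 40.3, 80.4 and 44.3 CPM in NM1 WT. NM1 WT 2 stood above all other mice and the remaining NM1 WT mice below all NM1 KO mice. The log2 fold change was 0.33 (SE 0.23, adjusted p = 0.511, edgeR), with an interval of -0.17 to 0.83. Without NM1 WT 2 it was 0.71 with adjusted p = 0.0492, and Myc was then the 1 member of 38 to pass, beside 2.18% of all tested genes in that fit. NM1 WT 2 also differed from the other NM1 WT mice in Y-linked transcripts, which were present in NM1 KO 1, NM1 KO 2 and NM1 WT 2 and listed at or near 0 in the other 3 libraries. Xist, expressed from the inactive X chromosome, had the reverse pattern. It had 0.609, 0.276 and 269 CPM in NM1 KO and 281, 1.16 and 300 CPM in NM1 WT. The labels give no sex. By these transcripts sex was unbalanced between genotypes, with NM1 KO 1, NM1 KO 2 and NM1 WT 2 male and NM1 WT 2 the sole male NM1 WT mouse. With the Y-linked level as a covariate the log2 fold change of Myc was 0.17 (adjusted p = 0.713).

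The high value of NM1 WT 2 recurred in other members, chosen here after their values were seen. Heatr1 had 27.3, 46.4 and 30 CPM in NM1 WT beside 31.2, 34.0 and 37.9 CPM in NM1 KO, and Bop1 had 37.5, 57.3 and 41.0 CPM beside 42.3, 40.3 and 48.5 CPM. In 5 members, Myc, Heatr1, Bop1, Sf3b1 and Wdr12, NM1 WT 2 was at least 1.3 times the mean of the other NM1 WT mice, with ratios of 1.90, 1.62, 1.46, 1.33 and 1.31. NM1 WT 2 was the highest NM1 WT mouse for 22 of 38 members (57.9%), beside 39.0% of all tested genes. By group it was the highest for 3 of 5 core subunits, 6 of 8 B-WICH genes and 6 of 9 ribosome assembly factors. For initiation and termination factors it was 3 of 7, and for nucleolar and snoRNP proteins 3 of 8. In the wider small and large subunit lists it was 45 of 76 genes, in the further Pol I subunits 2 of 8, and over all wider lists 49.7%. In the proliferation list it was 9 of 10, but for 0 of these was NM1 WT 2 the highest of all 6 libraries. In the neutrophil list it was 6 of 12. Ratios there were 1.48 for Elane, 1.47 for Mpo and 1.51 for Prtn3, while Retnlg had 0.631. The parts of cell composition, sex and Myc in the values of NM1 WT 2 were not tested. The mean score of NM1 WT 2 for ribosome assembly factors was 5.26 log2 CPM, beside 4.91 and 5.12 in the other NM1 WT mice and 4.99 to 5.15 in NM1 KO. Without NM1 WT 2 the log2 fold changes of Heatr1 and Bop1 turned from -0.01 and -0.05 to 0.27 and 0.16.

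**Figure D4:**
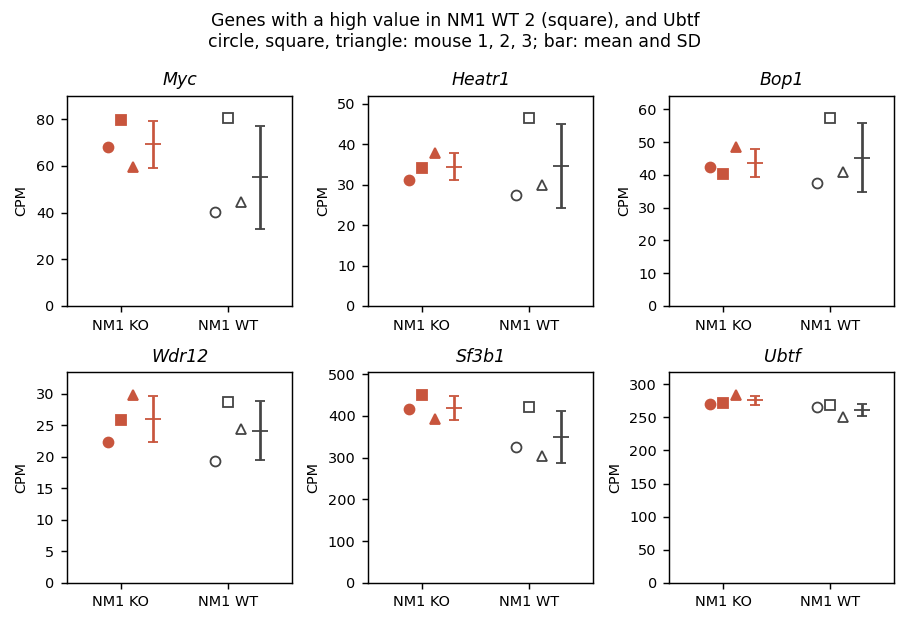
CPM (y axis, from 0) of the 5 members with the highest NM1 WT 2 values relative to other NM1 WT mice, and of Ubtf for comparison, with circle, square and triangle for mouse 1, 2 and 3 of each genotype and a bar for mean and SD. The NM1 WT 2 square stands above the other NM1 WT mice in the first 5 panels, at 80.4 CPM for Myc, and close to NM1 WT 1 in that of Ubtf, at 268 and 266 CPM.

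Myc and its partner Max bind the E-box CACGTG, so the promoters of the members were searched for it as a description of sequence. The letters read the same on both strands. RefSeq promoter windows on GRCm38.p6, from 250 bases before to 50 after a start site, were at hand for 33 of the 38 members. The motif was in the windows of 6 members (18.2%), beside 8.09% of all genes with a window. Per window the shares were 14.0% of 43 and 7.15% of 32851. All genes with a window were counted, whether or not expressed in marrow, and the difference was not tested. The 6 members with the motif were Mybbp1a, Rrn3, Utp20, Ercc6, Pes1 and Nop2. They had log2 fold changes of -0.20, 0.23, -0.18, 0.15, -0.09 and 0.08 between genotypes and NM1 WT 2 ratios of 1.13, 1.23, 1.01, 1.24, 1.08 and 1.25. The 4 with the smallest p are shown to let the site be seen in place, 5′ to 3′ on the strand of the gene, with the E-box in capitals. Rrn3 held it at 215 and 48 bases before its start and Ercc6 at 96 bases before, while Mybbp1a and Utp20 held it at bases 41 and 38 after the start. The stretches are chr16:13780449-13780698 (plus strand), chr14:32513398-32513457 (plus), chr11:72441355-72441376 (plus) and chr10:88826765-88826789 (minus), in this order.
Rrn3: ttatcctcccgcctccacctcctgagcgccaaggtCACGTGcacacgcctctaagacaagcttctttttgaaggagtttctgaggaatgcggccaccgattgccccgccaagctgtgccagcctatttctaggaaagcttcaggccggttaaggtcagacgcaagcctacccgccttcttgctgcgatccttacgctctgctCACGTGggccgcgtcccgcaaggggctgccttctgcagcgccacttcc
Ercc6: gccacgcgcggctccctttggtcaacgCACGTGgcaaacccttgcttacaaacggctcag
Mybbp1a: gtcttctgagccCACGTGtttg
Utp20: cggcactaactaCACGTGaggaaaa
The members with the highest NM1 WT 2 ratios that had a window, Heatr1, Sf3b1 and Wdr12, had no CACGTG in it. Myc and Bop1 had no window, and sites outside the windows were not searched. Whether Myc acts on any of these genes was not tested.

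Over all wider pathway lists 0 of 169 tested genes passed edgeR's quasi-likelihood test, 15 (8.88%) had an unadjusted p under 0.05, and 6 passed with DESeq2, 4 with the likelihood ratio test and 0 with limma-voom. These tools called 5.27%, 3.59% and 0.246% of all tested genes. Of 11 Myc network genes the median was 0.02. Mycn, a paralog of Myc active in early progenitors, had 5.22, 5.71 and 3.09 CPM in NM1 KO and 1.76, 2.32 and 1.05 CPM in NM1 WT. Its low values did not overlap, and the log2 fold change was 1.44 (SE 0.44, adjusted p = 0.141, edgeR). Mycn passed with DESeq2. Mnt, a repressor that competes for Max, had -0.26 (SE 0.14). Of 13 regulators of ribosomal chromatin the median was 0.06. Cdkn2a, a tumour suppressor locus whose ARF product restrains ribosome production, had 11.3, 8.75 and 7.32 CPM in NM1 KO and 34.1, 10.8 and 29.5 CPM in NM1 WT. The log2 fold change was -1.44 (SE 0.35, adjusted p = 0.0869, edgeR). NM1 WT 2 again lay with the NM1 KO mice. Cdkn2a passed with DESeq2 and with the likelihood ratio test. Sirt1, a deacetylase that silences ribosomal genes, had 51.3, 61.1 and 48.8 CPM in NM1 KO and 36.7, 38.7 and 27.6 CPM in NM1 WT, with no overlap. Its log2 fold change was 0.65 (SE 0.16, adjusted p = 0.0933, edgeR), and it too passed with DESeq2 and with the likelihood ratio test.

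The product of Pol I itself is poorly read in these files. Of 3 gene models known to overlap ribosomal RNA sequence, 2 were tested. Gm42418 had 470, 360 and 326 CPM in NM1 KO and 1200, 407 and 1370 CPM in NM1 WT, and the log2 fold change was -1.37 (SE 0.34, adjusted p = 0.0887, edgeR). NM1 WT 2 was among the NM1 KO mice and the other NM1 WT mice far above them. Gm42418 passed with the likelihood ratio test and not with DESeq2. Gm26917 had the opposite sign, 0.57 (SE 0.29), with 599, 1000 and 364 CPM in NM1 KO and 459, 352 and 510 CPM in NM1 WT. The labels do not say whether libraries were poly(A)-selected or depleted of ribosomal RNA, so Pol I output and the carry-over of mature rRNA cannot be told apart in these counts.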

How the data were processed

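The authors deposited 1 table of raw counts for each of the 6 mice, with Ensembl gene IDs. HTSeq, HISAT2 2.0.4, SAMtools 0.1.19, Trimmomatic 0.36 and FastQC are listed, with GRCm38 and mm10, per the submitters' processing notes. The sources used here do not give the annotation release, the strand setting or how reads were counted. Of counts between 1 and 50, 97.83% were even, so both mates of a pair appear to have been counted, and halved counts were tried. Symbols, positions and exon lengths came from GENCODE M21 (GRCm38), which matched 46091 of 46603 genes. Exons of 12 members overlap a protein-coding gene on the opposite strand, and for 2 (Taf1c and Dek) by over 5% of their bases.

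Genes were kept by filterByExpr (15069 genes, 99.9% of counts) and scaled by TMM. A level of 1 CPM then stood for 14.7 to 23.0 counts. The quasi-likelihood test of edgeR 4.0.16 (in R 4.3.3) had genotype as its only term. SE is the log2 fold change over the root of F, and 95% intervals use it with the fit's degrees of freedom. The pipeline was tested on simulated data with planted changes of at least 2-fold and the same dispersion for all genes. The simulation held no sex or cell type differences and did not cover changes as small as those of the members. Alternatives were 3 other scalings, 2 filters, the likelihood ratio test, limma-voom (limma 3.58.1), DESeq2 1.42.0, a replicate block, a Y-linked covariate, halved and thinned counts, fewer genes and each library left out. Leaving out genes within 20 Mb of Myo1c was added after the data were seen.

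The members and lists were chosen with earlier results of these data known. Values in each library are given for the 3 members of each group with the smallest p and for Polr1a, Ubtf, Smarca5, Baz1b, Npm1 and Myc. From each wider list the members past the threshold or the 2 with the smallest p are named. Mybbp1a, Heatr1 and Bop1 were added after their values were seen. The result of the stem and progenitor marker list is not reported here.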

Additional observations from a re-analysis of the deposited data

How the results depend on the processing

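In 19 of 20 alternatives 0 members passed (37 were tested without genes near Myo1c, 38 otherwise), and the exception was 1 gene, Myc, without NM1 WT replicate 2 (leave-one-out range 0 to 1 genes). The smallest adjusted p of any member ran from 0.0492 to 0.606. The median log2 fold change of the members ran from -0.04 to 0.02, and from -0.07 to 0.04 with a library left out. The number of all genes that passed, 117 here, was 1138 with no low-count filter, 541 with the likelihood ratio test, 37 with limma-voom, 794 with DESeq2, 52 with the Y-linked covariate, 207 without haemoglobin, immunoglobulin and mitochondrial genes, and 26 to 344 with a library left out (leaving out NM1 WT 1 gave 26, NM1 WT 3 gave 30, NM1 KO 2 gave 40, NM1 KO 3 gave 177 and NM1 WT 2 gave 344). Genes of the wider lists that passed numbered 10 with no low-count filter (Baz1a, Baz2b, Cdkn2a, Gm26917, Gm42418, Mycn, Rb1, Sirt1, Smarca2 and Snhg20), 4 with the likelihood ratio test (Baz1a, Cdkn2a, Gm42418 and Sirt1), 6 with DESeq2 (Baz1a, Baz2b, Cdkn2a, Mycn, Sirt1 and Smarca2) and 0 to 8 with a library left out. The 8 were Baz1a, Baz2b, Cdkn2a, Gm42418, Rrs1, Smarca2, Snhg20 and Snhg8, without NM1 WT 2, and without NM1 KO 1 there was 1, Baz1a. With the replicate block 421 genes passed in all, 3 of the wider lists (Baz1a, Cdkn2a and Sirt1) and 0 members. The correlations of the deviations of same-numbered mice were 0.06, 0.12 and 0.06, so the numbers were not taken to pair the mice, though each mouse correlated best with its own number.

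Of 759 member values under the alternatives 33 had the opposite sign, in 10 genes whose log2 fold changes were at most 0.11 in size. With upper-quartile scaling Nop58 had -0.01, and with thinned counts -0.01. With total-count scaling Ddx21 had 0.01, Ncl 0.01, Nat10 0.03 and Heatr1 0.03. With no low-count filter Nat10 and Heatr1 had 0.01 each. Heatr1 had 0.01 with limma-voom and 0.03 with the replicate block. With the Y-linked covariate Taf1b had 0.07 and Ncl 0.02. With a library left out the ranges were -0.26 to 0.06 for Taf1b, -0.08 to 0.06 for Ddx21, -0.16 to 0.07 for Ncl, -0.04 to 0.05 for Nop58, -0.03 to 0.10 for Dkc1, -0.17 to 0.16 for Bop1, -0.03 to 0.26 for Wdr12, -0.05 to 0.20 for Nop2, -0.08 to 0.06 for Nat10 and -0.15 to 0.27 for Heatr1. The cause was not tested.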

Other observations

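Relatives of the B-WICH remodeller had the lowest median of the pathway lists with at least 8 genes, -0.25 over 9 genes, with 0 past the threshold of edgeR's test. Baz1a, which encodes ACF1, the alternative partner of the Smarca5 ATPase, had 408, 280 and 297 CPM in NM1 KO and 618, 441 and 553 CPM in NM1 WT. The groups did not overlap, and the log2 fold change was -0.71 (SE 0.17, adjusted p = 0.0848), opposite in sign to that of Baz1b at 0.20. Smarca2, the ATPase BRM of the SWI/SNF complex, had 76.0, 57.6 and 56.1 CPM in NM1 KO and 108, 70.9 and 119 CPM in NM1 WT. NM1 WT 2 was among the NM1 KO mice, and the log2 fold change was -0.65 (SE 0.19, adjusted p = 0.131, edgeR). Baz1a passed with DESeq2, with the likelihood ratio test and with the replicate block, and Smarca2 passed with DESeq2. All 12 neutrophil markers had lower means in NM1 KO, with 0 past the threshold, and their part in the Baz1a and Smarca2 values was not tested.

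The other nuclear polymerases gave 0 called genes too. Of 20 genes specific to RNA polymerase III and its factors 10 were positive and 10 negative, with a median of 0.00 and values from -0.19 to 0.18. Polr3c and Brf1, a subunit and an initiation factor, had the smallest p of that list, with log2 fold changes of -0.19 and -0.17. Of 8 subunits specific to RNA polymerase II the median was -0.12. Polr2c had 47.8, 54.9 and 55 CPM in NM1 KO and 36.2, 43.7 and 41.8 CPM in NM1 WT, with no overlap. Its log2 fold change was 0.37 (SE 0.14, adjusted p = 0.206, edgeR), while Polr2a, the catalytic subunit, had -0.27 (SE 0.14). Of 10 snoRNA host genes 9 were tested, and Snhg20 and Snhg8 had -0.66 (SE 0.24) and -0.39 (SE 0.20). In both, NM1 WT 1 and NM1 WT 3 stood above all other mice.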
